A study of Mus musculus with 108 samples.

Results

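The growth hormone, IGF and insulin axis was followed through 10 genes: Igf1, Igfbp1, Igfbp2, Igfals, Ghr, Insr, Irs1, Irs2, Foxo1 and Foxo3. All 10 were matched by symbol among the 26089 mouse genes that have a curated transcript in RefSeq on chromosomes 1 to 19 or X. The rule names genes and uses no measured value. For each gene the chromatin state was read in the bin that holds the transcription start site (TSS), within 2 kb of the TSS, over the gene body and in the 50 kb on each side, in mm10 coordinates.

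Growth hormone from the pituitary reaches the hepatocyte through its receptor, Ghr, and the kinase JAK2 and the factor STAT5 then drive transcription of Igf1 and of Igfals, the acid-labile subunit that holds IGF1 in the circulating ternary complex. The liver is the main source of circulating IGF1, and its binding proteins, Igfbp1 and Igfbp2 among them, limit how much of it is free. Insulin acts on the same cell through Insr and the substrates Irs1 and Irs2, and the kinase AKT downstream of them keeps the factors Foxo1 and Foxo3 out of the nucleus. In the fasted liver FOXO1 is nuclear and raises transcription of Igfbp1 and Irs2, and calorie restriction lowers the insulin and IGF1 signal, which is why the axis is a standard subject in studies of ageing and diet.

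The livers came from C57BL/6 female mice, fixed in formalin and embedded in paraffin. SD 3m are mice of 3 months on a standard diet (8 mice, 30 libraries), SD 12m are mice of 12 months on that diet (8 mice, 29 libraries), and CR 12m are mice of 12 months that received 30% fewer calories from the age of 3 months on (9 mice, 29 libraries). The labels name the strain and no engineered allele. ChIP-seq was done for H3K4me3, H3K27me3, H3K27ac and H3K4me1, with 7, 7, 8 and 8 libraries in SD 3m, 8, 8, 7 and 6 in SD 12m, and 5, 6, 9 and 9 in CR 12m. The whole liver was used, so a mark in fewer cells and a weaker mark in each cell cannot be told apart. The series holds 108 libraries from 31 mice, and the group SD 6m was not analysed here.

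The authors merged the reads of a group and gave each 200-base bin 1 of 8 states. State 1 is the active TSS (H3K4me3 and H3K27ac) and state 2 the flanking TSS (these with H3K4me1). State 3 is active enhancer 1 (H3K27ac and H3K4me1), state 4 active enhancer 2 (weaker H3K27ac) and state 5 the poised enhancer (H3K4me1 without H3K27ac). State 6 is repressed Polycomb chromatin (H3K27me3), state 7 the age-related state with weak marks, and state 8 quiescent chromatin without the 4 marks. Each group has 1 segmentation, so the differences below compare 3 segmentations with no error over mice and no test. Counts over the 10 genes are set beside the same count over all genes, and since each 12-month group is set against the same young segmentation, these comparisons are not independent.

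The tissue label was checked at the TSS bins of marker genes. All 9 hepatocyte markers found (of 10 listed) were in states 1 to 5 in the 3 groups. Of 6 markers each, Kupffer cells had 1, 0 and 0 there at SD 3m, SD 12m and CR 12m, stellate cells 2, 1 and 1, endothelial cells 3, 4 and 6, bile duct 2, 3 and 4, and lymphocytes 3, 3 and 2. State 6 held the TSS bin of 2, 5 and 5 Kupffer cell markers and of 0, 3 and 2 stellate cell markers. Over all genes 58.2%, 58.3% and 58.9% of TSS bins were in states 1 to 5, and 11.0%, 14.9% and 12.2% in state 6. Hepatocyte markers moved within states 1 to 5, with 3, 7 and 5 of the 9 in states 1 and 2. Markers of the 5 other cell types also moved with the groups, and the part of these shifts in the values below was not tested.

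The TSS bins lay in TSS or enhancer states (1 to 5) at all 10 genes in the 3 groups, but for Irs2 in SD 3m. In SD 3m the TSS bin was in state 1 for Foxo1 and Foxo3, in state 2 for Insr, in state 3 for Igf1 and Igfals, in state 4 for Igfbp1, Igfbp2, Ghr and Irs1, and in state 7 for Irs2. None of the 10 was in the Polycomb state 6 or in the quiescent state 8 in any group, whereas 11.0% and 29.1% of all genes were there in SD 3m. In CR 12m all 10 were in states 1 to 4.

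**Figure D1:**
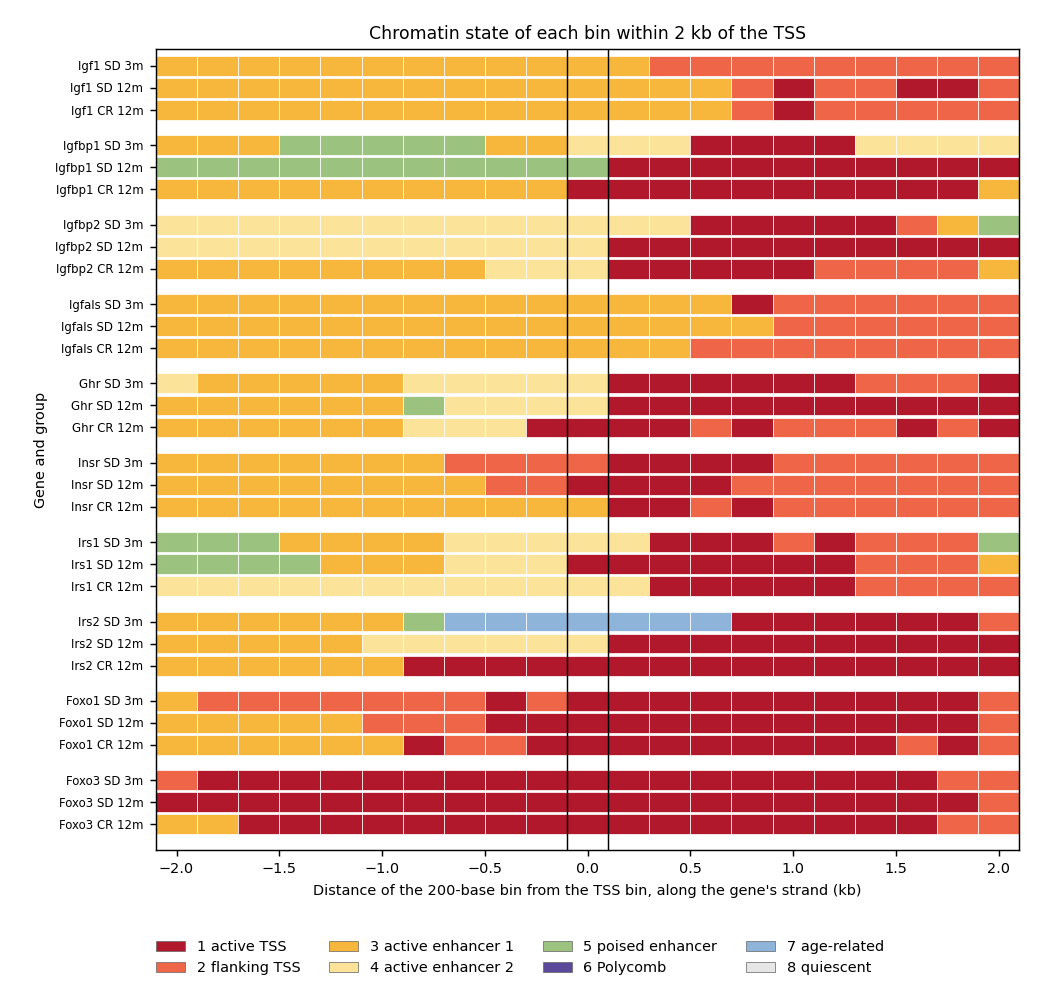
State of each 200-base bin (colour) from 2 kb before to 2 kb after the TSS (x axis, distance in kb along the strand) for the 10 genes in the 3 groups (rows); black lines bound the TSS bin. Foxo3 is in state 1 or 2 in nearly the whole window, Igf1 and Igfals are in state 3 before the TSS in the 3 groups, and the stretch of state 7 at Irs2 is present in SD 3m alone.

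From SD 3m to SD 12m the state of the TSS bin differed at 4 of the 10 genes (Igfbp1, Insr, Irs1 and Irs2), where 32.6% of all genes did. From SD 3m to CR 12m it differed at 4 genes (Igfbp1, Ghr, Insr and Irs2; 34.7% of all genes). Between the diets at 12 months it differed at 5 genes (Igfbp1, Ghr, Insr, Irs1 and Irs2), where 26.7% of all genes differed. The counts of 4 lie near those shares and the count of 5 above its own. At the curated start farthest downstream they were 7, 4 and 7, where 32.5%, 34.4% and 26.5% of all genes differed, and with states merged into 5 classes (1 with 2, 3 to 5, 6, 7 and 8) they were 2, 4 and 5, where 23.3%, 25.3% and 19.8% of all genes differed. Igf1, Igfbp2, Igfals, Foxo1 and Foxo3 had the same state at the TSS in the 3 groups. At the 5 genes that differed between the diets, a stretch in states 1 and 2 held the TSS bin on 1 diet. On the other diet it began in the next bin downstream (Igfbp1, Ghr, Insr and Irs2) or 0.4 kb downstream (Irs1). These differences thus lay at the edge of a stretch.

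Igf1 encodes the growth factor itself (chr10:87858265-87937047, plus strand), and its body was almost wholly active enhancer chromatin. State 3 covered 365 of 395 gene body bins at SD 3m (92.4%), 372 at SD 12m and 374 at CR 12m. The TSS bin of the longest transcript was in state 3 in the 3 groups, and the stretch in states 1 and 2 lay downstream of it, over the other 2 curated starts at 0.787 and 2.85 kb. These 2 bins were in state 2 in the 3 groups except for the second in SD 12m, which was in state 1.

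That downstream stretch at Igf1 measured 6 kb in SD 3m, 3.8 kb in SD 12m and 4.2 kb in CR 12m. It was state 2 throughout in SD 3m, while 6 body bins were in state 1 in SD 12m and 1 in CR 12m. Of the gene body bins 5.3% had another state in SD 12m and 2.5% in CR 12m, against medians over all genes of 25.0% and 26.3%. An antisense noncoding gene, Igf1os, overlaps the first kilobases of Igf1, and a state at a bin belongs to both strands.

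Igfals and Ghr are the other members driven by or receiving growth hormone. Igfals (chr17:24877844-24882011, plus strand) is short, with 22 body bins, all in states 1 to 3 in the 3 groups. State 3 took 15, 13 and 12 of them in SD 3m, SD 12m and CR 12m, and states 1 and 2 took 7, 9 and 10. Within 2 kb of its TSS 4.8% of bins had another state in SD 12m and 9.5% in CR 12m.

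Ghr (chr15:3317755-3583352, minus strand) has a long body of 1329 bins, and its enhancer states differed between the groups. State 3, the active enhancer, held 780 bins at SD 3m, 655 at SD 12m and 740 at CR 12m. State 5, the poised enhancer, held 371, 517 and 262, and state 4 held 60, 41 and 202. SD 12m had the lowest state 3 and the highest state 5 of the 3 groups, and CR 12m had the highest state 4 and the lowest state 5. At the TSS the 2 SD groups were in state 4 and CR 12m in state 1, while the other curated start, 1.51 kb downstream, was in states 2, 1 and 2.

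Igfbp1, whose transcription in liver is raised in fasting, had a combination of TSS states that few genes shared. The gene (chr11:7197787-7202546, plus strand) was in states 4, 5 and 1 at the TSS in SD 3m, SD 12m and CR 12m, a combination found at 1 other gene of the 26089. The stretch of state 1 began in the TSS bin in CR 12m and in the next bin in SD 12m. The difference between the diets at the TSS bin thus rests on a shift of 1 bin. Before the TSS, SD 3m alternated between states 3 and 5. In SD 12m an unbroken stretch of state 5 ran for 9.8 kb up to the TSS, and in CR 12m a stretch of state 3 ran for 8.8 kb there. By the states' definitions the upstream chromatin carried H3K4me1 in both, with H3K27ac in CR 12m alone.

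Within 2 kb of the Igfbp1 TSS state 5 held 5 bins at SD 3m, 11 at SD 12m and 0 at CR 12m, and state 3 held 5, 0 and 11. Of the 324 genes with at least 11 bins of state 5 in that window in SD 12m, 144 (44.4%) had none in CR 12m, and 77 (23.8%) had none together with more state 3. The move of Igfbp1 was therefore no rare one among genes with so much state 5. State 1 lay downstream of the TSS with 4 bins at SD 3m, 10 at SD 12m and 10 at CR 12m. In its 25 body bins the quiescent state 8 took 8, 10 and 0.

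Igfbp2 (chr1:72824480-72852474, plus strand), the other binding protein of the set, was in state 4 at the TSS in the 3 groups, and its second curated start 0.907 kb downstream was in state 1 in all of them. Its body of 141 bins held 53 bins of state 3 at SD 3m, 89 at SD 12m and 116 at CR 12m. State 5 held 40, 8 and 2 bins, and state 8 held 10, 0 and 0. State 4, also an active enhancer state, held 32, 32 and 14 bins. State 3 alone thus took most of the body in both 12-month groups, where SD 3m had a mixture.

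**Figure D2:**
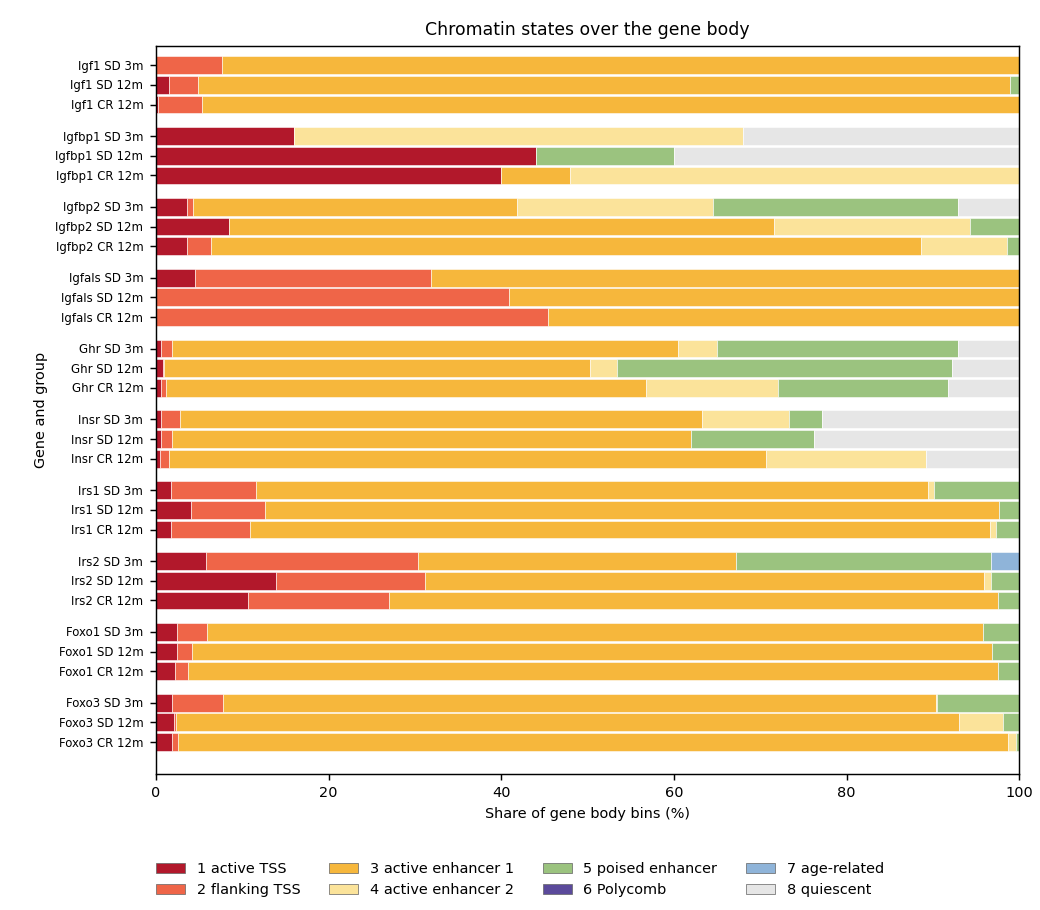
Share of gene body bins (x axis, percent) in each of the 8 states (colours) for the 10 genes in the 3 groups (rows). State 3 fills over 90% of the Igf1, Foxo1 and Foxo3 bodies in the 12-month groups, state 5 is widest at Ghr in SD 12m, and state 8 covers part of Igfbp1, Ghr and Insr.

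Insr, the insulin receptor gene (chr8:3150922-3279617, minus strand), was in states 2, 1 and 3 at the TSS. Its body of 645 bins held 390 bins of state 3 at SD 3m, 388 at SD 12m and 446 at CR 12m. Its distal end was quiescent, and state 8 took 147, 153 and 70 bins. The transition zone before that end was in states 3 and 4 on calorie restriction and largely in state 5 at SD 12m. State 4 took 65, 0 and 119 bins and state 5 took 25, 92 and 0. In the flanks state 8 took 327, 313 and 245 of 500 bins. CR 12m therefore stood apart from both SD groups with fewer quiescent bins in the body and flanks and with no poised bins in the body.

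Irs1 (chr1:82233105-82291439, minus strand) and Irs2 (chr8:10984681-11008929, minus strand) encode the receptor's substrates. Irs1 was in states 4, 1 and 4 at the TSS, and 9.9% of its body bins had another state in SD 12m and 9.9% in CR 12m. Between the diets 47.6% of the bins within 2 kb of its TSS differed, although 6.1% of the body did.

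Irs2 was the member with the age-related state 7 at its TSS. A stretch of state 7 of 1.4 kb covered the TSS bin in SD 3m, from 0.6 kb before it to 0.8 kb after it. In SD 12m 42.9% of these bins were in state 1 and 57.1% in state 4, and in CR 12m 100% were in state 1. The lncRNA gene 9530052E02Rik starts within Irs2 on the other strand, and its TSS bin was in state 1 in the 3 groups.

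Beyond its TSS the Irs2 locus had more active enhancer chromatin in the older groups. State 3 held 45 of 122 body bins at SD 3m, 79 at SD 12m and 86 at CR 12m, and state 5 held 36, 4 and 3. In the flanks state 3 held 227, 331 and 420 of 500 bins. The order of the groups in state 3 was the same in the body and the flanks. State 4, also an active enhancer state, held 140, 161 and 64 flank bins and was lowest in CR 12m.

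Foxo1 (chr3:52268337-52350109, plus strand) and Foxo3 (chr10:42181845-42276695, minus strand), the factors that insulin restrains, were in state 1 at the TSS in the 3 groups. Their windows were largely in TSS states: states 1 and 2 held 20, 16 and 15 of 21 bins at Foxo1 and 21, 21 and 19 at Foxo3. State 3 held 369, 380 and 385 of the 410 body bins of Foxo1 and 392, 431 and 457 of the 475 of Foxo3. Of the Foxo1 body bins 3.2% had another state in SD 12m and 4.1% in CR 12m, while 53.4% and 46.8% of its flank bins did.

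**Figure D3:**
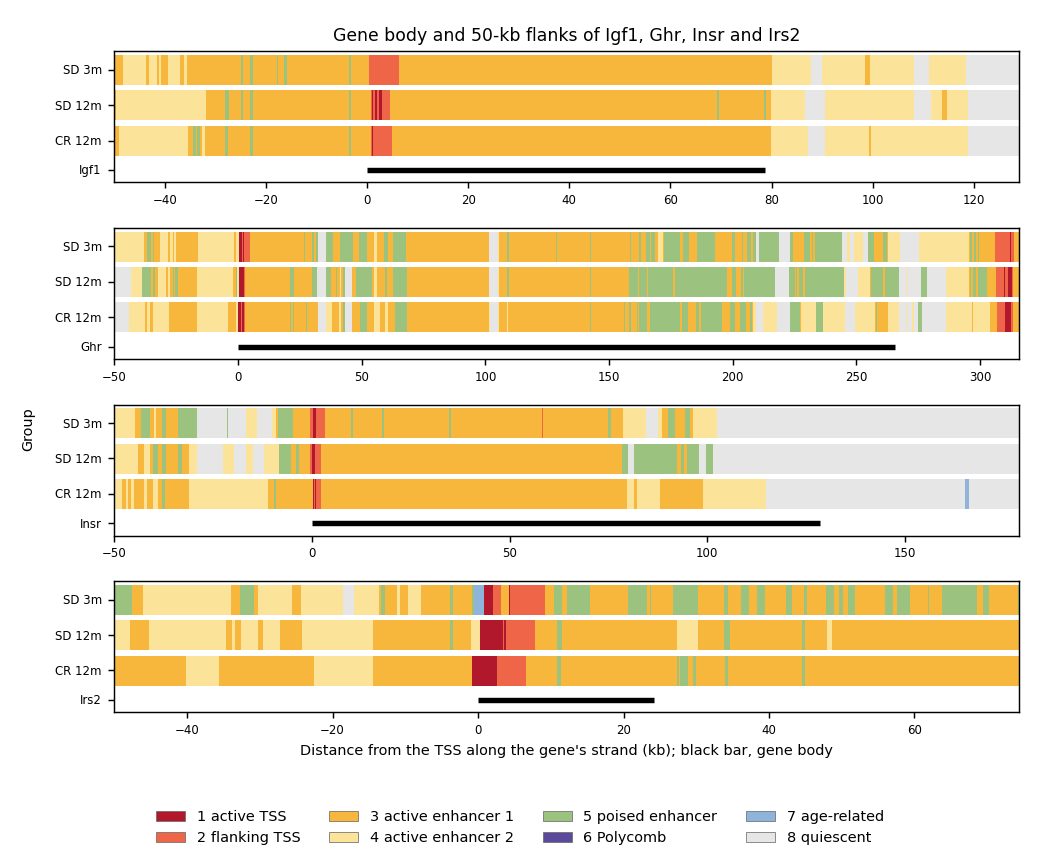
State (colour) along the body and 50-kb flanks of Igf1, Ghr, Insr and Irs2 in the 3 groups (rows) by distance from the TSS in kb (x axis, along the strand); the black bar is the gene body. The Igf1 body is state 3 almost throughout, the distal Ghr body is mostly state 5 in SD 12m, and the quiescent end of the Insr body is shorter in CR 12m.

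The promoter sequences of the set ranged from CpG-poor to CpG-rich ones. From 250 bases before to 50 after the TSS, the ratio of observed to expected CpG was lowest at Igfals (0.160) and Igf1 (0.221), followed by Igfbp1 (0.383), and highest at Irs2 (1.06) and Foxo1 (1.10). Igfbp2 (0.645), Ghr (0.700) and Insr (0.721) lay between. The median of all 26084 promoters read was 0.516 with quartiles of 0.213 and 0.810. The 2 genes with the lowest ratios had state 3 at the TSS in the 3 groups, and Foxo1 and Foxo3, with ratios of 1.10 and 0.834, had state 1. A high ratio did not go with 1 state, as Irs2 was in states 7, 4 and 1 and Irs1, with a ratio of 0.827, in states 4, 1 and 4.

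Below are the 250 bases before the TSS of a CpG-poor promoter whose state held (Igf1, chr10:87858015-87858264, plus strand), of a CpG-rich one whose state held (Foxo3, chr10:42276696-42276945, minus strand) and of 2 of the 3 members whose TSS bin had a different state in each group, those that FOXO1 activates (Igfbp1, chr11:7197537-7197786, plus strand, and Irs2, chr8:11008930-11009179, minus strand). They were read 5′ to 3′ from the RefSeq assembly GRCm38.p6. Capitals mark CG pairs at Foxo3 and motif letters in the others (the TATA, CCAAT and insulin response element motifs spelled out after them, on either strand).
Igf1: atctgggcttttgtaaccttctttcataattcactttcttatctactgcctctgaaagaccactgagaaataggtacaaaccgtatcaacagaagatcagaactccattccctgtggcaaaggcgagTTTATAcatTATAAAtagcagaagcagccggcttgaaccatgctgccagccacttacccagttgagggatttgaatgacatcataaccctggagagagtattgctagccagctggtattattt
Foxo3: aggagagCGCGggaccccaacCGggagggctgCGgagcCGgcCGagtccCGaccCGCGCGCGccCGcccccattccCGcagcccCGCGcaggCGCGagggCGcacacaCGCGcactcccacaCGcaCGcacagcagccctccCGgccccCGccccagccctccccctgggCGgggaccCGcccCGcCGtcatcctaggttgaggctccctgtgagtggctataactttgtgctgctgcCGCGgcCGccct
Igfbp1: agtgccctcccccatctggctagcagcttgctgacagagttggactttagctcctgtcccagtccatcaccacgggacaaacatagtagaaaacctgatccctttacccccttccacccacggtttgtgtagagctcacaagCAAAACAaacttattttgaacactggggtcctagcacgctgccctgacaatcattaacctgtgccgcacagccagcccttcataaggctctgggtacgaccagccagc
Irs2: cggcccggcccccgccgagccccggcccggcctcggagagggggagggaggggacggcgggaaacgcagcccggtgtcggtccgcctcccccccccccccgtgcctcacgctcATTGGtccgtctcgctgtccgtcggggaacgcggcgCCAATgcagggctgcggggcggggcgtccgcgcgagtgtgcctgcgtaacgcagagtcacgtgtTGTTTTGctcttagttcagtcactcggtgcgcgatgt

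Igfbp1 held CAAAACA, the core of the insulin response element, from 108 to 102 bases before the TSS, and Irs2 held it on the minus strand from 37 to 31 bases before the TSS. With Irs1, 3 of the 10 promoters held it, against 5.81% of all promoters. The STAT5 motif TTCNNNGAA was at Igfals alone among the 10 (8.11% of all promoters), from 236 to 228 bases before the TSS. GTAAACA, the only spelling searched as a FOXO motif, was at none (3.09%), which does not show that FOXO sites were absent. CCAAT was at 5 (38.3%) and TATAAA at Igf1 alone, on both strands (13.1%). The motifs do not overlap each other in the printed sequences. A match is a run of letters and not a bound site.

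The TSS states 1 and 2 together held about as many bins near these genes at 12 months as at 3 months. Among the 12477 genes with such a bin within 2 kb of the TSS in SD 3m, 87.9% had fewer in SD 12m and 92.2% had fewer in CR 12m. Of the 10 members 4 had fewer in each: Igf1, Igfals, Insr and Foxo1 in SD 12m, and Igf1, Insr, Foxo1 and Foxo3 in CR 12m. In SD 3m the TSS bin itself was in states 1 and 2 at 10449 of these genes, but at only 3 members. Among the 2028 genes with the TSS bin in states 3 to 8, 73.6% had fewer in SD 12m and 80.2% in CR 12m. Of the 7 members of that kind 2 and 1 did. More such bins were found at 15.4% and 11.7% of the 2028 genes and at 4 and 6 of the 7 members. Pooled over the 210 bins of the members, states 1 and 2 took 106 bins at SD 3m (50.5%), 113 at SD 12m (53.8%) and 114 at CR 12m (54.3%). Over all genes they took 28.9%, 18.7% and 16.4%.

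State 2, which carries H3K4me1 beside H3K4me3, was less frequent in the older groups. It held fewer bins in SD 12m at 8 of the 9 members that had it in SD 3m (93.7% of all such genes) and in CR 12m at 5 of 9 (94.0%). The pooled bins in state 2 were 46, 27 and 40, and those in state 1 were 60, 86 and 74. Over all genes state 1 took 8.54%, 8.84% and 7.59% of bins within 2 kb.

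The window mattered to this comparison. Within 5 kb of the TSS states 1 and 2 took 36.3% of the members' bins in the young group and 32.4% in each of the 12-month groups, so the direction turned, while over all genes they took 16.3%, 8.92% and 7.72%. Of the members 5 had fewer such bins within 5 kb in SD 12m and 5 in CR 12m, against 91.5% and 94.4% of all genes. The same 5 genes were concerned in both: Igf1, Ghr, Insr, Foxo1 and Foxo3.

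The length of the stretch in states 1 and 2 nearest to the TSS separated the members into the same sets. At Igf1 it measured 6, 3.8 and 4.2 kb in SD 3m, SD 12m and CR 12m, at Ghr 4.8, 2.6 and 3.2 kb, and at Insr 3.8, 2.8 and 2 kb. At Foxo1 it measured 6.6, 4.4 and 3.8 kb and at Foxo3 9.4, 4.2 and 3.8 kb. These 5 had the longest stretches of the members in SD 3m and shorter ones in both 12-month groups.

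At Igfbp1 the stretch measured 0.8, 2.2 and 2 kb, at Igfbp2 1.2, 2.4 and 1.8 kb, and at Igfals 1.4, 1.8 and 2 kb. At Irs1 it measured 1.6, 2 and 2.4 kb and at Irs2 2.4, 7.6 and 7.4 kb. These 5 had the shortest stretches of the members in SD 3m and longer ones in both 12-month groups. The split by length in SD 3m and the split by direction were thus the same. In SD 3m the Irs2 stretch was followed after 1 kb of state 3 by a further 5 kb of states 1 and 2, and the single stretch at 12 months spanned this gap. The Irs1 stretch held 8, 10 and 12 bins in the 3 groups. Over the whole Irs1 body state 1 took 5, 12 and 5 bins and state 2 took 29, 25 and 27. Its longer stretch in CR 12m thus did not go with more such bins in the gene.

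Stretches were shorter in SD 12m at 89.0% of the 11342 genes with one in both groups, and in CR 12m at 92.3%, against 5 of 10 members in each. Among genes whose stretch in SD 3m was as long as in the first 5 members (3.8 to 9.4 kb), 1.06% had a longer one in SD 12m and 0.447% in CR 12m, against 0 of 5. Among those with one of 0.8 to 2.4 kb, 11.7% had a longer one in SD 12m and 9.31% in CR 12m, against 5 of 5 members. Both ranges came from the members' own lengths in SD 3m, the baseline of the change. The 2 sets are also those described above as shorter and longer, so 0 of 5 and 5 of 5 are no test. Hepatocyte markers were mixed too: of 8 with such bins within 2 kb, 5 had more at SD 12m and 4 at CR 12m. The number of H3K4me3 libraries (7, 8 and 5) moved with the groups as well, and its part was not tested.

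**Figure D4:**
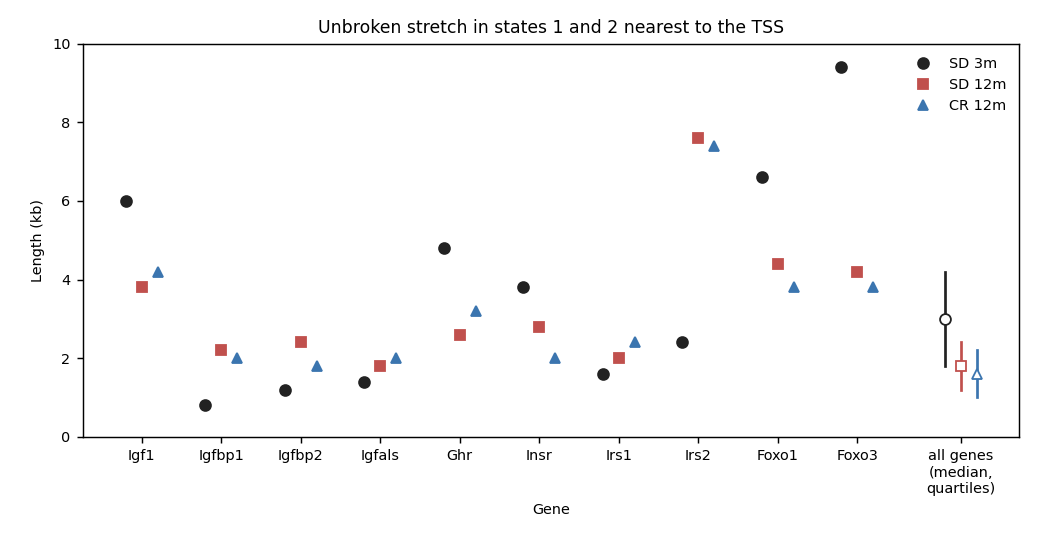
Length in kb (y axis) of the unbroken stretch in states 1 and 2 nearest to the TSS for each gene (x axis) in SD 3m (circles), SD 12m (squares) and CR 12m (triangles); open symbols and lines give the median and quartiles over all genes. Igf1, Ghr, Insr, Foxo1 and Foxo3 are longest in SD 3m, and Igfbp1, Igfbp2, Igfals, Irs1 and Irs2 are shortest in SD 3m.

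At the median of the members, active and poised enhancer states filled most of the gene body in each group, and fewer body bins changed state than at the median gene. The median share of body bins with another state over the members was 18.4% for SD 12m and 19.5% for CR 12m against SD 3m, and 12.1% between the diets. Over all genes these medians were 25.0%, 26.3% and 14.9%. Against SD 3m, Igfbp1 (52.0% and 64.0%), Igfbp2 (41.1% and 53.2%) and Irs2 (45.1% and 48.4%) lay above them in both 12-month groups. Ghr (28.0%) did so in CR 12m. States 3 to 5 took a median of 88.5%, 89.3% and 89.8% of the members' body bins in the 3 groups, where the median over all genes was 27.5%, 35.4% and 39.3%. The lowest member value was 16% at Igfbp1 in SD 12m.

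State 3 held more body bins in SD 12m than in SD 3m at 6 of 9 members with any (63.4% of such genes), and in CR 12m at 8 of 10 (76.5%). Between the diets CR 12m held more at 9 of 10 (69.1%), all but Igfals. State 5 held fewer body bins in SD 12m at 5 of 9 (75.5%), in CR 12m at 7 of 7 (84.1%) and in CR 12m against SD 12m at 8 of 9 (65.0%), all but Irs1, which had 7 bins at SD 12m and 8 at CR 12m.

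In the flanks state 3 held more bins in SD 12m than in SD 3m at 6 of 10 (67.9%) and in CR 12m at 8 of 10 (82.4%). CR 12m held more than SD 12m at 10 of 10 (83.2%), with 115 bins against 110 at Ghr and 145 against 50 at Foxo1. These flank counts lie near the shares of all genes. The median share of flank bins with another state was 34.0% for SD 12m and 38.7% for CR 12m against SD 3m, where the medians over all genes were 29.8% and 31.0%. Between the diets it was 22.9%, where the quartiles over all genes were 12.8% and 28.6%.

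Polycomb chromatin lay beside 5 of the 10 genes in SD 3m, where 53.7% of all genes had a flank bin in state 6. State 6 took 53 flank bins at Igfbp1, 99 at Igfbp2, 105 at Irs1, 76 at Foxo1 and 67 at Foxo3, and none at the other 5. At 12 months, on either diet, 4 of these 5 had no bin of state 6 in the flanks, where 39.9% (SD) and 41.1% (CR) of the 2048 genes with 50 to 105 such bins and a TSS in states 1 to 5 in SD 3m had none. Over the genome state 6 took more bins in both older groups, 14.4% in SD 12m and 10.3% in CR 12m against 9.48% in SD 3m.

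Irs1 was the member that kept its Polycomb stretch. It ran for 21 kb (chr1:82294201-82315200), from 2.76 kb upstream of the gene, and overlapped no annotated gene. State 6 took 99.0% of it at SD 12m and 95.2% at CR 12m. The 12-month segmentations each showed it nearly whole, with lengths of 21 and 20 kb.

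At Igfbp1 the stretch (chr11:7213201-7223800, 10.6 kb) covered the TSS end of Igfbp3, the gene of the main circulating IGF carrier, whose own TSS bin was in states 6, 8 and 8. At 12 months it was quiescent (state 8) throughout on either diet. At Igfbp2 the stretches of 15.4 and 4.4 kb downstream (chr1:72878201-72893600 and chr1:72897201-72901600) were in state 8 throughout in both, beyond Igfbp5, another IGF binding protein gene, whose TSS bin was in states 5, 5 and 4.

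The 2 Foxo genes had their Polycomb stretches upstream. Those of Foxo1 (5.6 and 9.6 kb, chr3:52232801-52238400 and chr3:52244001-52253600) lay over the lncRNA gene Gm30125 and were in state 8 in CR 12m. In SD 12m the nearer one was in state 8 at 85.4% of bins and in state 4 at 14.6%. That of Foxo3 (13.4 kb, chr10:42297401-42310800) overlapped no gene, and state 8 took 91.0% of it at SD 12m and 79.1% at CR 12m, state 4 taking the rest. Downstream of Foxo3 a stretch of state 7 of 3.8 kb in SD 3m was in state 4 throughout in both 12-month groups.

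**Figure D5:**
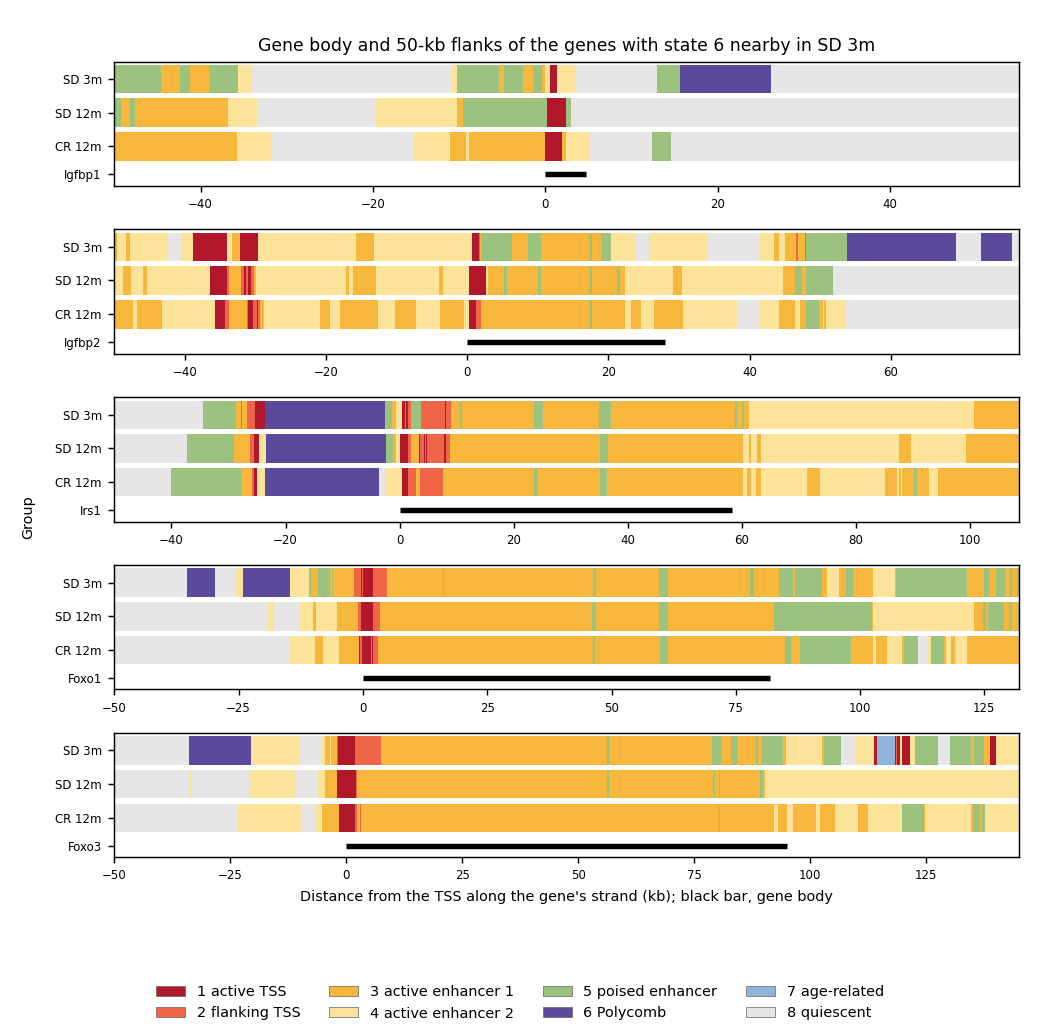
State (colour) along the body and 50-kb flanks of the 5 genes with state 6 nearby in SD 3m, in the 3 groups (rows), by distance from the TSS in kb (x axis, along the strand); the black bar is the gene body. The Polycomb stretch upstream of Irs1 is present in the 3 groups, while those of Igfbp1, Igfbp2, Foxo1 and Foxo3 are present in SD 3m alone.

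Of 68 other genes of the pathway, 52 had a TSS bin in states 1 to 5 at SD 3m, 53 at SD 12m and 53 at CR 12m, where 58.2%, 58.3% and 58.9% of all genes had one. The TSS bin differed at 19 of them between SD 3m and SD 12m, at 27 between SD 3m and CR 12m, and at 20 between the diets, where 32.6%, 34.7% and 26.7% of all genes did. In alphabetical order, the first 8 of the 15 that differed from SD 3m in both 12-month groups were Cish, Gh, Ghrh, Ghrhr, Htra1, Igf1r, Igf2r and Igfbp3. Cish, a STAT5 target that damps growth hormone signalling, was in states 2, 1 and 3, and Igf1r, the IGF1 receptor gene, which hepatocytes hardly express, was in states 7, 6 and 4. Igf2r, which clears IGF2, was in states 1, 4 and 4, and Ghrhr, the pituitary receptor for growth hormone-releasing hormone, in states 6, 8 and 8.

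Between the diets the 20 included Akt1, Cish, Foxo6, Gh, Grb14, Gsk3a and Htra1. Akt1, a kinase below the insulin receptor substrates, was in states 2, 2 and 3. Grb14, an inhibitor of the insulin receptor in liver, and Gsk3a, a kinase that AKT inhibits, were both in states 1, 1 and 4. Bins in states 1 and 2 within 2 kb of the Grb14 TSS were 7 at SD 3m, 6 at SD 12m and 0 at CR 12m, and at Gsk3a they were 21, 16 and 6.

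The genes whose 63 labels (21 bins in 3 groups) were most like those of a member were found over all genes. Igf1 was most like Rdh7, a retinol dehydrogenase gene, with 58 labels equal (92.1%), Insr most like Ahcy (90.5%), Foxo3 most like Hivep2 (90.5%) and Foxo1 most like Ptma (87.3%). Irs2 was most like Arg1, the arginase gene of the urea cycle (79.4%), and Ghr most like Cth (77.8%). The likeness was lower for Igfbp1, with A1cf (74.6%), and Irs1, with Prkch (71.4%). For Igfbp2 and Igfals several genes were tied.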

How the data were processed

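Liver chromatin of the 3 groups was profiled by ChIP-seq for 4 marks. Per the labels, the authors used BWA 0.6.2-r126 for alignment (mm10) and SAMtools 0.1.18 for filtering. They then merged the reads of a group and learned 8 states with ChromHMM. The deposited values are labels from 1 to 8 per 200-base bin, and no other unit was used. Merging removed the spread between mice, and how many reads stand behind a label is not known. Each segmentation held 13168874 bins.

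Positions came from the RefSeq annotation of GRCm38.p6, whose chromosome lengths equal those of the files. The longest curated transcript by genomic span gave the TSS and body of each gene. Shares of bins, stretches and counts were computed with Python 3.11.15, NumPy 2.4.6, pandas 2.3.3 and SciPy 1.17.1, and drawn with matplotlib 3.10.9. Changes planted in TSS bins of simulated data were counted back at the TSS and within 2 kb. Stretches and flanks were not tested in this way. No filter was applied. The members and gene lists were chosen with earlier results of these data known. All 10 members were described. Other pathway genes were named where the TSS bin differed from SD 3m in both 12-month groups or between those groups, at most 8 of each in alphabetical order (1 that the rule names is not reported here), and neighbours where they overlapped or lay beside a stretch described. The alternatives were other windows, flanks, transcripts and states merged into 5 classes. The start farthest downstream was added after seeing the data.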

Additional observations from a re-analysis of the deposited data

How the results depend on the processing

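No paired analysis was possible because each group has 1 segmentation of merged libraries. The 21 summaries were recomputed under other settings, which gave 75 values, and 49 of these stayed within the 95% Wilson interval over bins or within 1.5 times the count. Bins are not independent, so the interval covers counting alone. Merging states into 5 classes gave 2 members with another TSS state in SD 12m against SD 3m (23.3% of all genes). It gave 12.9%, 16.2% and 10% of bins within 2 kb (SD 12m and CR 12m against SD 3m, CR 12m against SD 12m), 6.27%, 7.24% and 3.54% of body bins and 11.6%, 18% and 5.4% of flank bins with another state.

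Flanks of 20 kb gave 28.8% with another state in SD 12m, flanks of 100 kb gave 26.9% in SD 12m and 32.8% in CR 12m, and leaving out other genes' bins gave 41.5% in SD 12m, all against SD 3m. In SD 3m the median share of flank bins in states 6 and 7, 5.6%, became 0.75% with 20 kb, 8.05% with 100 kb and 2.49% without other genes' bins. States 1 and 2 took 36.3%, 32.4% and 32.4% of bins within 5 kb in SD 3m, SD 12m and CR 12m, so the order of the groups turned. At the start farthest downstream they took 59.5%, 63.3% and 63.8%, and between SD 3m and SD 12m 7 members differed in TSS state (32.5% of all genes). States 3 to 5 took 92.1% of body bins in SD 3m and 94.1% in CR 12m without the bins near the TSS. The cause of these moves was not tested.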
